A study of Bos taurus with 16 samples.

Results

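Liver RNA and muscle RNA of the same calves were compared for 4 genes, GSTT4 (ENSBTAG00000000170), CCDC42 (ENSBTAG00000018416), TRIM31 (ENSBTAG00000004490) and LOC509881 (ENSBTAG00000024901), out of the 27607 gene IDs in the deposited table. The 4 genes were picked for their high liver values in calves of in vitro produced embryos (IVP) against calves whose embryos came from multiple ovulation and embryo transfer (MOET). Liver values of the members are therefore described without a test, and tests were run on muscle, which the choice did not use.

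The study sequenced polyadenylated RNA from the right lobe of the liver and from the semitendinosus muscle of 8 Holstein bull calves, 16 libraries in all. For the 4 IVP calves, the donor cow was given a mild hormonal stimulation and oocytes were collected by ovum pick-up. Maturation, fertilisation and culture took place outside the animal. For the 4 MOET calves, the donor was superovulated and inseminated, and the embryos were flushed and transferred to recipients. IVP calves were 98 to 103 days old at sampling. MOET calves 3217, 3218 and 5932 were at most 104 days old, and MOET calf 3213 was 144 days old. IVP calves 3208 and 3209 and MOET calves 3217 and 3218 were full siblings, by the sire Builder P out of the same dam. IVP calves 5833 and 5841 had that dam and another sire, My Dream P RC. MOET calves 5932 and 3213 came from a second dam and from a sire each, so part of the difference between the groups cannot be told apart from parentage, and only the 4 full siblings set both embryo origins within 1 family.

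The members belong to unrelated families. GSTT4 encodes a theta-class glutathione S-transferase, a group of enzymes that join glutathione to reactive compounds, a step of detoxification for which the liver is the main organ. TRIM31 encodes a RING-type E3 ubiquitin ligase of the tripartite motif (TRIM) family, known for acting on the antiviral adaptor MAVS and on the inflammasome sensor NLRP3. LOC509881 is annotated as CMRF35-like molecule 4, a member of the CD300 family of immunoglobulin-like receptors, which are found mainly on myeloid cells. CCDC42 encodes a coiled-coil protein known from the male germ line, where it is needed to build the sperm tail.

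Library totals ran from 22758137 to 24667728 deposited counts for liver and from 23677247 to 25626474 for muscle, and values are given as counts and as CPM, counts scaled to the same library total. The authors had adjusted the counts for age, and in both organs the counts of calf 3213 lay closer to the mean of the other MOET calves than counting noise allows (median log2 deviation 0.0219 for liver and 0.0137 for muscle, against 0.033 and 0.0355 from counting alone). The other 7 calves deviated by 0.0993 to 0.372 for liver and by 0.108 to 0.187 for muscle. Calf 3213 is shown but enters no mean or SD, so that n = 4 for IVP and n = 3 for MOET calves. The fits with age keep its library beside the other MOET libraries, although it is not a separate replicate, and their log2 fold changes, SE and FDR carry that limit. In liver the SE of GSTT4 was 0.316 with it, 0.155 when it was left out with age kept, and 0.314 when it was left out together with age, and 5, 2187 and 5 genes were called. IVP calf 5841 had the largest of these deviations in liver. Hepatocyte markers summed to 7572 to 9145 CPM in IVP liver, to 6463 to 6742 CPM in MOET liver and to at most 34.4 CPM in muscle, and muscle fibre markers to 135008 to 165033 CPM in muscle and to at most 1.01 CPM in liver, so the organs matched their labels. These sums cover the 4 of 12 hepatocyte and 6 of 12 fibre markers that could be named. The hepatocyte sums thus moved with embryo origin in liver, where DESeq2 with age called 3 of the 4 markers higher (APOA1, TTR and ASGR1) and APOB lower in IVP calves and edgeR called none, and their part in the results on the 4 genes was not tested. Whether fewer cells of a type or less RNA per cell lies behind a level cannot be told apart in such bulk samples.

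GSTT4 had 740 and 746 counts in the liver of IVP calves 3208 and 3209, and 899 and 336 in calves 5833 and 5841. In MOET liver the counts were 84, 110 and 145 in calves 3217, 3218 and 5932, and 105 in calf 3213. The groups were apart, and the lowest IVP calf stood 2.30-fold above the highest MOET calf. The IVP mean was 28.6 ± 10.3 CPM (SD, n = 4) and the MOET mean 4.79 ± 1.30 CPM (SD, n = 3), a 5.98-fold difference. In the fit of edgeR with age as covariate the log2 fold change was 2.77 (SE 0.316).

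CCDC42 was the steadiest of the 4 genes within the groups. Its liver counts were 205, 194, 214 and 193 in IVP calves 3208, 3209, 5833 and 5841. In MOET calves 3217, 3218, 5932 and 3213 they were 66, 74, 83 and 77. The groups did not overlap, and the IVP mean of 8.49 ± 0.519 CPM (SD, n = 4) was 2.69-fold the MOET mean of 3.15 ± 0.356 CPM (SD, n = 3). The fitted log2 fold change was 1.59 (SE 0.156), and the ratio of the means became 3.04-fold when library sizes were scaled by TMM.

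TRIM31 was close to absent from MOET liver, with 4, 5 and 1 counts in calves 3217, 3218 and 5932 and 4 in calf 3213. IVP livers held 82 and 83 counts in calves 3208 and 3209 and 40 and 51 in calves 5833 and 5841. The lowest IVP calf was 8.52-fold above the highest MOET calf. Means of 2.68 ± 0.866 CPM (SD, n = 4) and 0.140 ± 0.0855 CPM (SD, n = 3) stood 19.1-fold apart, and the log2 fold change was 4.35 (SE 0.472). With so few counts in MOET liver the size of this ratio is loosely set, and leaving out any 1 calf moved the log2 fold change to between 3.92 and 4.78.

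LOC509881 had 86, 89, 73 and 144 counts in the liver of IVP calves 3208, 3209, 5833 and 5841. In MOET liver it had 10, 7 and 15 counts in calves 3217, 3218 and 5932 and 10 in calf 3213. Again no MOET calf reached the IVP range. Means of 4.13 ± 1.35 CPM (SD, n = 4) and 0.456 ± 0.180 CPM (SD, n = 3) stood 9.07-fold apart, with a log2 fold change of 3.29 (SE 0.395).

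**Figure D1:**
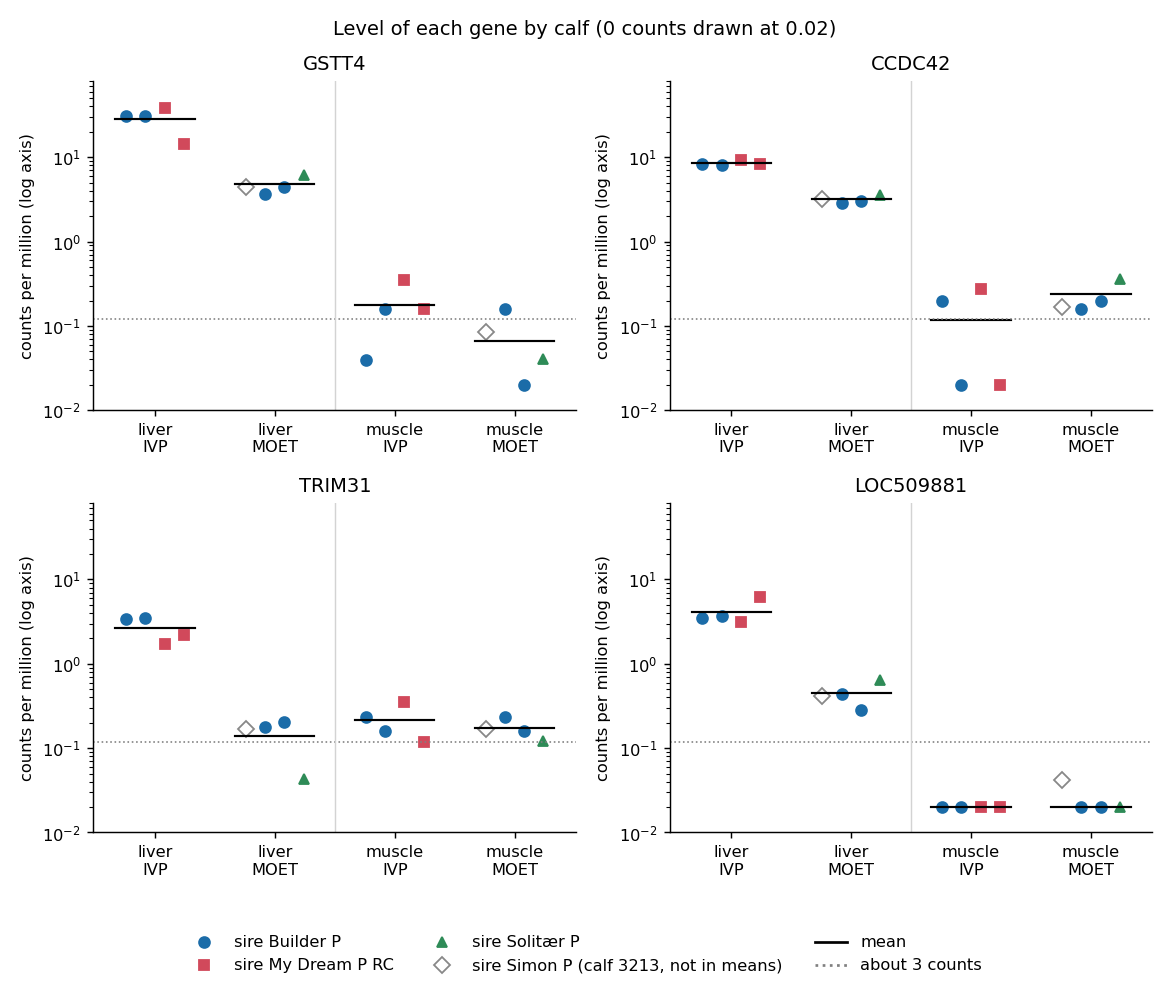
Counts scaled to library size (CPM) of GSTT4, CCDC42, TRIM31 and LOC509881 in the liver and muscle of each calf, on a log axis with 0 counts drawn at 0.02. Symbols give the sire, the open diamond is MOET calf 3213, horizontal lines are means without it and the dotted line is about 3 counts. In liver every IVP calf lies above every MOET calf in all 4 panels. In muscle points lie on both sides of the dotted line and none is above 0.361 CPM.

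These liver contrasts were the reason for the choice, so the following shares give only their setting. Of the 14290 genes tested in liver, 5 were higher in IVP calves at a false discovery rate (FDR, Benjamini-Hochberg) under 0.05, which is 0.035%, and 0 were lower. Groups apart in this way, with each IVP calf over each of the 4 MOET calves, were found in 1442 genes, or 10.1%. By edgeR's FDR the genes just inside that limit were CCDC42 (0.0233), TRIM31 (0.0352), GSTT4 (0.0402) and LOC509881 (0.0489). The first gene outside it was TP53I13, with an FDR of 0.0673, 46.7 to 53.4 CPM in IVP and 22.5 to 27.8 CPM in MOET liver. The fifth gene inside was PRSS2, which encodes a trypsinogen and had 294 to 519 CPM in IVP and at most 0.0419 CPM in MOET liver.

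Ranked by fitted log2 fold change among the 14290 genes, TRIM31 was number 3, LOC509881 number 7, GSTT4 number 10 and CCDC42 number 48. None of them was among the most abundant liver transcripts by CPM, which takes no account of transcript length. Mean CPM in IVP liver placed GSTT4 above 73.3% of the genes tested, CCDC42 above 44.1%, LOC509881 above 30.9% and TRIM31 above 24.3%. In MOET liver GSTT4 was above 30.0% and CCDC42 above 23.1%, whereas LOC509881 was above 0.931% and TRIM31 above 0.0140%. These last 2 genes passed the filter on low counts through their IVP libraries. Because transcript lengths of the build used by the authors were not used here, levels are not compared between the 4 genes.

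The IVP calves differed among themselves, and each gene in its own way. CCDC42 varied by 6.11% (coefficient of variation, n = 4), where counting alone gives 7.04%, and the median over all genes tested was 20.3%. GSTT4 varied by 35.9%, TRIM31 by 32.3% and LOC509881 by 32.7%, against 3.83%, 12.5% and 10.1% from counting alone. Calf 5841 had the lowest GSTT4 of the 4, 14.3 CPM against 30.4 to 38.8 CPM, and the highest LOC509881, 6.13 CPM against 3.15 to 3.71 CPM. Without this calf the log2 fold change was 2.94 for GSTT4 and 3.06 for LOC509881. TRIM31 was split by sire, with 3.37 and 3.46 CPM in the sons of Builder P and 1.73 and 2.17 CPM in those of My Dream P RC. The 95% exact Poisson interval of the count was 65.2 to 102 in calf 3208 and 66.1 to 103 in calf 3209. In calf 5833 it was 28.6 to 54.5, below both. In calf 5841 it was 38.0 to 67.1, which overlaps both. These intervals cover counting error only, and with 2 calves per sire the difference was not tested. Among MOET calves, calf 5932 had the highest count of GSTT4, CCDC42 and LOC509881 and the lowest count of TRIM31.

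**Figure D2:**
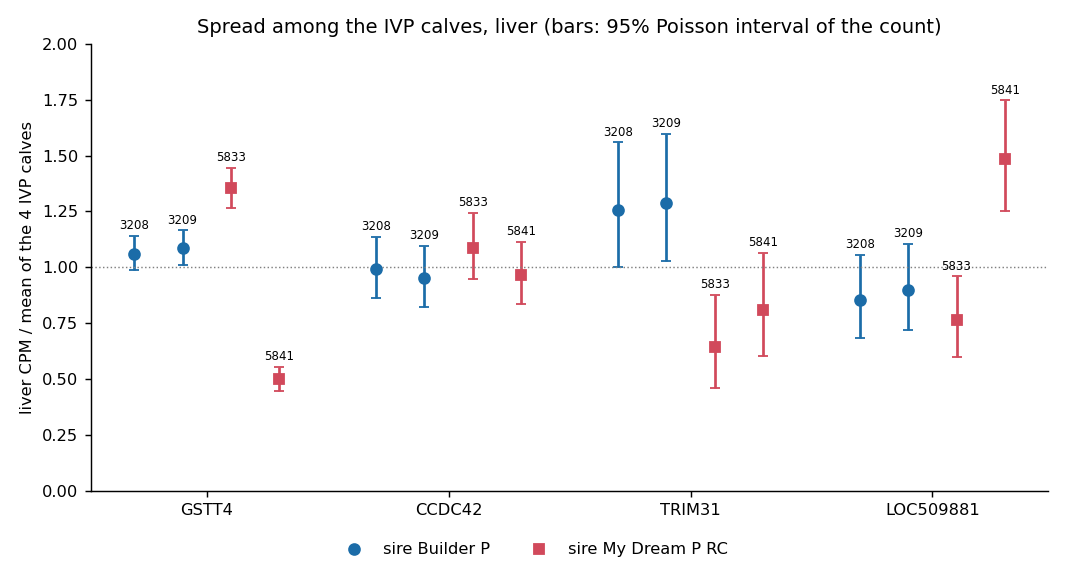
Liver CPM of each IVP calf divided by the mean of the 4 IVP calves, for each gene. Bars are 95% exact Poisson intervals of the count and symbols give the sire. The intervals of CCDC42 overlap in all 4 calves, and GSTT4 is low and LOC509881 high in calf 5841. TRIM31 is higher in the sons of Builder P, whose intervals overlap that of calf 5841.

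The full siblings were among the calves on which the genes were picked, so their direction follows from the choice and only their ratios are described. The mean CPM of IVP calves 3208 and 3209 was 7.54-fold that of MOET calves 3217 and 3218 for GSTT4, 2.80-fold for CCDC42, 18.04-fold for TRIM31 and 10.01-fold for LOC509881. With 2 calves on each side these ratios have no test. The ratio of Builder P sons to My Dream P RC sons within IVP was 1.16 for GSTT4, 0.946 for CCDC42, 1.75 for TRIM31 and 0.780 for LOC509881.

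In muscle all 4 genes were at or near the lower limit of detection, and none passed the filter on low counts. GSTT4 had 1, 4, 9 and 4 counts in IVP calves 3208, 3209, 5833 and 5841 and 4, 0, 1 and 2 in MOET calves 3217, 3218, 5932 and 3213. CCDC42 had 5, 0, 7 and 0 counts in the same order of IVP calves and 4, 5, 9 and 4 in that of MOET calves. TRIM31 had 6, 4, 9 and 3 counts in IVP and 6, 4, 3 and 4 in MOET muscle. In these 3 genes the groups overlapped. LOC509881 had 0 counts in 7 muscle libraries and 1 count in calf 3213. As a one-sided limit, a count of 0 allows up to 3 counts, or 0.117 to 0.120 CPM in the muscle of the 4 IVP calves. Hepatocyte markers summed to 3.42 to 34.4 CPM in IVP and to 1.04 to 2.35 CPM in MOET muscle, and their part in the few GSTT4 counts there was not tested.

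No difference between IVP and MOET muscle was detectable at this depth. With all genes kept, edgeR's test with age gave GSTT4 a log2 fold change of 1.31 (SE 0.961, FDR 0.591), CCDC42 -0.97 (SE 0.885, FDR 0.629) and TRIM31 0.30 (SE 0.614, FDR 0.866). This fit called 186 of 20440 genes, 0.91%, and 0 of the 4 members, and none of the 4 had an unadjusted p under 0.05 in it or with DESeq2. LOC509881 had 1 count over all muscle libraries together, so it could not have been called and its outcome is no result. In the exact two-sided permutation test of log2 CPM over 4 IVP and 3 MOET calves, p was 0.286 for GSTT4, 0.286 for CCDC42 and 0.743 for TRIM31, where 0.0571 is the smallest p the design allows. With all 4 MOET calves the exact permutation p was 0.229, 0.257 and 0.629. Within 2 SE of the fitted estimate the log2 fold change in muscle ran from -0.62 to 3.23 for GSTT4, from -2.74 to 0.80 for CCDC42 and from -0.93 to 1.52 for TRIM31.

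Set against muscle of the same calf, liver held more of GSTT4, CCDC42 and LOC509881 in every calf. Where muscle had 0 counts, the ratio was taken against the limit of 3 counts and is a lower bound. Other ratios have a 95% exact interval that covers counting error only. For GSTT4 liver was 90.0-fold (34.8 to 332) above muscle in IVP calf 5841, 109-fold (57.4 to 240.02) in calf 5833 and 195-fold (75.8 to 717) in calf 3209. In calf 3208 the single muscle count gave 779-fold, with an interval that starts at 139. In MOET calves the GSTT4 ratio was 23.4-fold (8.80 to 87.8) in calf 3217, at least 37.4-fold in calf 3218 and 52.1-fold (14.1 to 436) in calf 3213, and in calf 5932 the interval starts at 27.4. These intervals are wide.

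For CCDC42 the ratio was 33.5-fold (15.97 to 84.3) and 43.2-fold (18.2 to 134) in IVP calves 5833 and 3208, and at least 67.6-fold and at least 68.9-fold in calves 3209 and 5841. In MOET calves it lay between 9.88-fold (4.96 to 22.4) in calf 5932 and 19.1-fold (7.17 to 71.9) in calf 3213. LOC509881 was at least 26.6-fold to at least 51.4-fold higher in the liver of IVP calves. It was at least 2.38-fold to at least 5.35-fold higher in that of MOET calves 3217, 3218 and 5932, and 9.93-fold (1.41 to 431) in calf 3213. For TRIM31 the liver of IVP calves held between 4.87-fold (2.32 to 11.4) in calf 5833 and 21.7-fold (8.16 to 81.5) in calf 3209 as much as muscle. In MOET calves 3217, 3218 and 3213 the ratio was 0.742, 1.27 and 0.993, and each interval included 1. In calf 5932 both organs were at or under 3 counts. TRIM31 RNA was thus at a few counts in MOET liver, MOET muscle and IVP muscle alike. These ratios use CPM, scaled by library totals alone, and their intervals do not cover the choice of scaling. A fit by edgeR with TMM and age over all 16 libraries gave log2 fold changes of liver over muscle. In IVP calves these were 6.73 for GSTT4, 5.56 for CCDC42, 3.04 for TRIM31 and 9.46 for LOC509881. In MOET calves they were 5.18, 3.02, -0.98 (SE 0.524) and 4.21. Ratios and fit rest on the liver values that chose the genes and have no test.

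The families of the members were followed as far as their genes could be named. Names came from supplementary tables of genes selected in part on these same libraries, so the counts are no independent evidence of a direction. Of all genes tested in liver, 14.8% were higher and 15% lower in IVP calves at an unadjusted p under 0.05, and in muscle 11.4% and 8.43%. The median log2 fold change of all genes was -0.0040 in liver and 0.018 in muscle. At an FDR under 0.05, 0.28% of the muscle genes were called higher and 0.187% lower. No gene of the lists below had an FDR under 0.05 in either organ by edgeR. DESeq2 with age, the alternative test, called 5.24% of the liver genes higher and 5.38% lower, and 2.16% and 1.5% of the muscle genes, and its calls are given beside each list.

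Of the 21 glutathione S-transferases listed beside GSTT4, 5 could be named and tested in liver. Of these, 3 had higher and 1 had lower values in IVP calves at an unadjusted p under 0.05, and the median log2 fold change was 0.52. DESeq2 called these 4, GSTK1, MGST2 and MGST3 higher and GSTO1 lower, and none in muscle. GSTK1, a mitochondrial and peroxisomal form, had a liver mean of 172 ± 8.39 CPM (SD, n = 4) for IVP and 134 ± 10.4 CPM (SD, n = 3) for MOET calves, with a log2 fold change of 0.52 (SE 0.130, edgeR FDR 0.125). MGST3, a membrane-bound form, had a log2 fold change of 0.60 (SE 0.175). The values of MGST2 and GSTA2 were 0.55 and 0.42.

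GSTO1, an omega-class enzyme, went the other way in liver, and MOET calf 5932 held most of its counts. Its liver counts were 6, 4, 6 and 4 in IVP calves 3208, 3209, 5833 and 5841. In MOET calves 3217 and 3218 they were 11 and 18, in calf 5932 they were 121, and in calf 3213 they were 43. In muscle calf 5932 had 271 counts, and the other IVP and MOET calves had 0 to 4, apart from calf 3213 with 34. The fitted log2 fold change in liver was -3.07 (SE 0.831, edgeR FDR 0.125), and without calf 5932 it was -1.40 (SE 0.382, edgeR FDR 0.316), with calf 3213 kept. Calf 3213 lay near the liver mean of the other MOET calves (1.80 against 2.13 CPM). The estimate of -1.40 may therefore still carry the values of calf 5932.

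Glutathione synthesis and recycling could be followed in 5 of 22 listed genes. In liver 4 of them had higher values in IVP calves at an unadjusted p under 0.05, and the median log2 fold change was 0.68. GSS, which makes glutathione in the last step of its synthesis, had 32.4 ± 5.14 CPM (SD, n = 4) against 22.4 ± 0.756 CPM (SD, n = 3). GPX1, which uses glutathione to reduce peroxides, had 187 to 381 CPM in IVP and 128 to 150 CPM in MOET liver. ANPEP, an aminopeptidase that cleaves the product of glutathione breakdown, had 10.2 to 25.5 CPM against 9.97 to 10.98 CPM. In muscle 1 of the 5 genes, GPX7, had lower values at that level, with a log2 fold change of -0.48 (SE 0.137, edgeR FDR 0.112), and the median was -0.12. DESeq2 called GSS, GPX1 and ANPEP higher in liver and none of the 5 in muscle.

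Of the 79 TRIM family genes listed, 8 could be named, and 7 of these passed the filter in liver. TRIM31 was not matched in direction by most of them: the median log2 fold change was -0.37, with 1 gene higher and 2 lower at an unadjusted p under 0.05. TRIM59 had 0.0851 to 0.691 CPM in IVP and 1.01 to 2.23 CPM in MOET liver, with a log2 fold change of -1.76 (SE 0.487, edgeR FDR 0.125). TRIM4 had 8.43 ± 2.86 CPM (SD, n = 4) and 17.9 ± 5.23 CPM (SD, n = 3), and TRIM44 had 8.36 ± 0.613 and 7.00 ± 1.18 CPM. DESeq2 called TRIM4 and TRIM59 lower. In muscle 6 were tested, with a median of -0.09, where DESeq2 called none, and TRIM8 was lower at an unadjusted p under 0.05 with a log2 fold change of -0.23 (SE 0.091, edgeR FDR 0.204).

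Of 21 listed genes of the RIG-I, MAVS and inflammasome pathways, 5 could be named. MAVS and NLRP3, on which TRIM31 is known to act, were not among them. In liver IRF3, CASP1 and CASP4 had higher values in IVP calves at an unadjusted p under 0.05, and the median log2 fold change of the 5 genes was 0.49. CASP4, an inflammatory caspase, had 31.6 ± 5.55 CPM (SD, n = 4) against 22.8 ± 1.08 CPM (SD, n = 3), with a log2 fold change of 0.62 (SE 0.187, edgeR FDR 0.126), and it was the member of the list that DESeq2 called. In muscle 0 of 4 genes tested reached that level in edgeR or were called by DESeq2, and the median was -0.05.

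For LOC509881 only CD300LG, an endothelial member, could be named among 8 listed genes of the CD300 family. Its liver level was 45.9 ± 7.65 CPM (SD, n = 4) for IVP and 38.6 ± 15.9 CPM (SD, n = 3) for MOET calves. In muscle it had 35.3 ± 10.4 CPM (SD, n = 4) and 22.4 ± 1.94 CPM (SD, n = 3), a log2 fold change of 0.61 (SE 0.164, edgeR FDR 0.102), which DESeq2 called.

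Markers of myeloid cells, in which CD300 receptors are found, also had higher values in IVP liver. All 6 macrophage and Kupffer cell markers that could be named, of 18 listed, had an unadjusted p under 0.05 in that direction, and none was at 0. They summed to 1637 to 2479 CPM in IVP and to 1284 to 1725 CPM in MOET liver, and their median log2 fold change was 0.68. DESeq2 called AIF1, C1QA, C1QB and C1QC of them. The complement gene C1QA had 485 ± 104 CPM (SD, n = 4) and 328 ± 58.2 CPM (SD, n = 3). The 3 of 12 neutrophil and monocyte markers that could be named summed to 68.8 to 84.0 CPM in IVP and to 56.1 to 62.9 CPM in MOET liver, and their median was 0.60. The highest log2 fold change among these 9 markers was 1.43, for S100A9. Muscle held 20.2 to 64.4 CPM of the macrophage markers in IVP and 28.0 to 39.1 CPM in MOET calves. Stellate cell and fibroblast markers, 4 of 8 named, went the other way in liver and summed to 475 to 662 CPM in IVP and to 808 to 947 CPM in MOET calves. The same markers were also lower in IVP muscle, with sums of 771 to 1079 CPM against 1227 to 1739 CPM. Their median log2 fold change was -0.55 in each organ. The part of myeloid or other cells in the LOC509881 result was not tested.

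Genes of the cilium and sperm flagellum, the setting in which CCDC42 is known, could be named in 2 of 32 cases. CCDC39, which is needed to assemble motile cilia, had 0.255 to 0.452 CPM in IVP and 0.601 to 1.18 CPM in MOET liver, and ODF2, a centriole and sperm tail protein, had 12.05 to 24.8 and 28.9 to 41.1 CPM. Both lay opposite to CCDC42, with log2 fold changes of -1.11 (SE 0.356, edgeR FDR 0.127) and -0.67 (SE 0.196, edgeR FDR 0.125). In muscle the log2 fold change was -1.39 for CCDC39 and 0.36 for ODF2, with edgeR FDR of 0.107 and 0.238. DESeq2 called ODF2 lower in liver and CCDC39 lower in muscle.

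**Figure D3:**
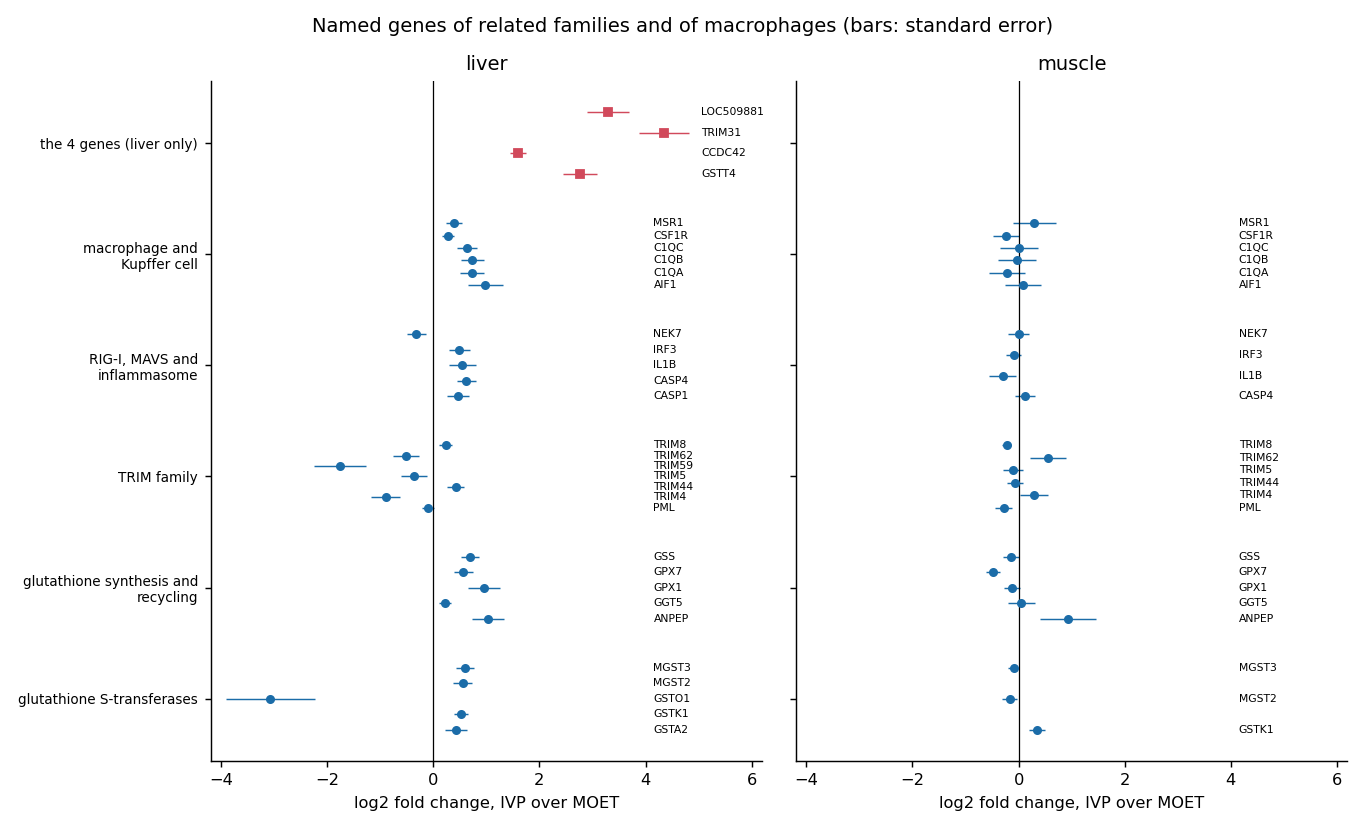
Log2 fold change of IVP over MOET calves in liver (left) and muscle (right) for the named genes of 5 lists, with the 4 genes themselves in liver as red squares. Bars are standard errors from edgeR's fit with age. The 4 genes lie between 1.59 and 4.35, and most genes of the lists lie within 1 unit of 0, with GSTO1 at -3.07 and TRIM59 at -1.76 as the lowest in liver.

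The genes next to the members in the RefSeq annotation of ARS-UCD2.0, a newer assembly than the one the authors used, gave few values. GSTT4 lies on chromosome 17 between MIF and GSTT1, with LOC132342556 overlapping it. CCDC42 lies on chromosome 19 between the noncoding LOC132343043, next to MYH10, and MFSD6L. TRIM31 lies on chromosome 23 beside TRIM40 and TRIM10 and RNF39, and the noncoding LOC104975670 overlaps it. LOC509881 lies on chromosome 19 within a row of CD300 genes, CD300E and LOC789732 before it and CD300H and CD300C after it. The libraries did not keep the strand, so reads of GSTT4 and TRIM31 cannot be told apart from those of the genes that overlap them, and near-identical CD300 or theta-class copies could share or lose reads.

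Of these neighbours, MIF and MYH10 could be matched to an ID. MIF, which encodes a cytokine, had 64.9, 83.4, 64.9 and 158 CPM in the liver of IVP calves 3208, 3209, 5833 and 5841 and 32.8, 46.0, 57.4 and 42.9 CPM in MOET calves 3217, 3218, 5932 and 3213. Calf 5841, lowest for GSTT4 among IVP calves, was highest for MIF. The log2 fold change of MIF was 1.18 in liver (SE 0.383, edgeR FDR 0.127) and -0.34 in muscle (SE 0.102, edgeR FDR 0.125). MYH10, a nonmuscle myosin, had a liver level of 22.9 ± 3.70 CPM (SD, n = 4) for IVP and 40.3 ± 7.49 CPM (SD, n = 3) for MOET calves, with a log2 fold change of -0.64 (SE 0.142, edgeR FDR 0.125), the opposite sign to its neighbour CCDC42. In muscle the log2 fold change of MYH10 was 0.64 (SE 0.157, edgeR FDR 0.0846).

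Across the 8 liver libraries the log2 CPM of the 4 genes correlated with each other at Pearson's r of 0.888 to 0.971, from GSTT4 with LOC509881 to CCDC42 with LOC509881. All points share the difference between IVP and MOET calves that chose the genes, so r describes that pattern and is given without a p. Among 3512 named genes with a mean of at least 1 CPM in liver, DNAJC22 (r = 0.980) and TMIGD3 (0.971) were most like GSTT4, followed by CCDC42 itself (0.965). Most like CCDC42 were HAND2 (0.992), PRSS2 (0.990) and EFNA1 (0.984). Most like TRIM31 were VIPR2 (0.980), CISH (0.972) and PRSS2 (0.969). Most like LOC509881 were SUMO3 (0.984), SYT3 (0.982) and FOXA2 (0.980). Several of these had far smaller differences than the members. HAND2 had 15.2 to 15.8 CPM in IVP and 11.5 to 12.4 CPM in MOET liver, and FOXA2 had 36.8 to 44.8 and 22.9 to 24.7 CPM.

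**Figure D4:**
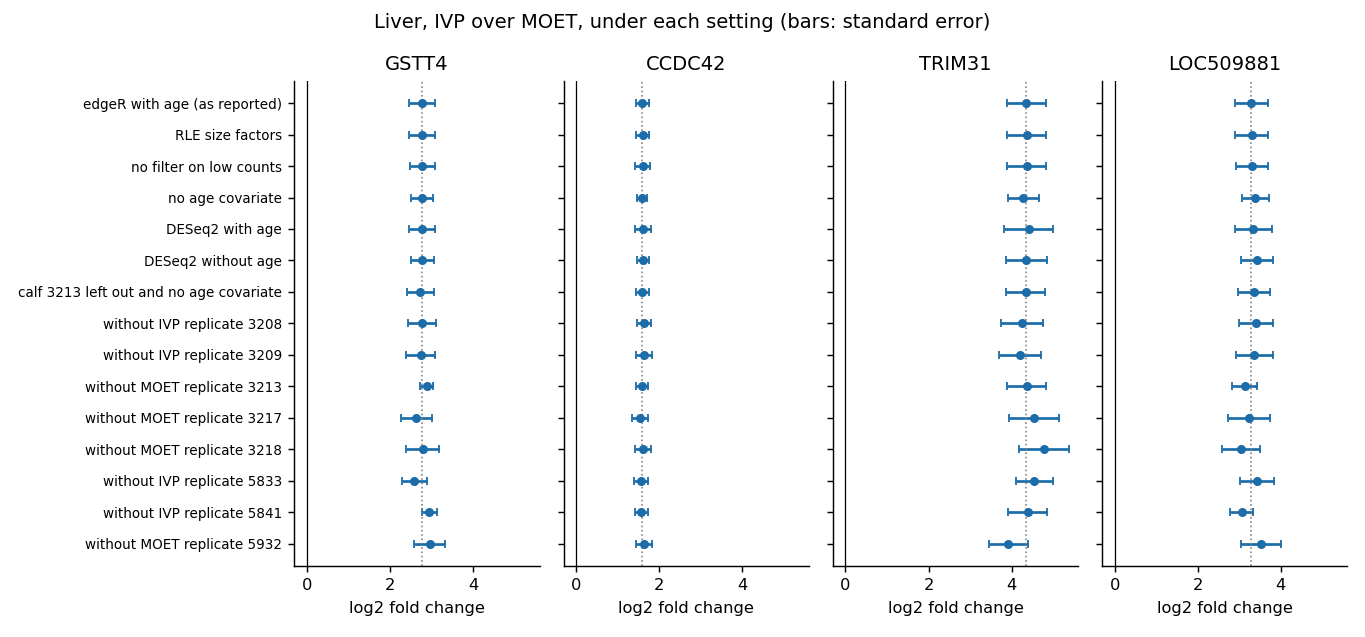
Fitted liver log2 fold change of IVP over MOET calves for each gene under the fit with age by edgeR and 14 other settings. Points are estimates, bars are standard errors and dotted lines mark the estimate of the fit with age. All estimates are above 0, and the lowest were 2.58 for GSTT4, 1.53 for CCDC42, 3.92 for TRIM31 and 3.04 for LOC509881.

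The estimated liver difference in the 4 genes stayed above 0 however the fit was made, and its size moved least for CCDC42 and most for TRIM31. Over 14 other settings, among them DESeq2, no age term, another scaling and the omission of each calf, the estimates lay between 2.58 and 2.95 for GSTT4, 1.53 and 1.63 for CCDC42, 3.92 and 4.78 for TRIM31 and 3.04 and 3.52 for LOC509881. Whether they stayed under an FDR of 0.05 did depend on the setting. This was so in 9 of 14 settings for GSTT4, 9 for CCDC42, 10 for TRIM31 and 8 for LOC509881. Several of these settings called many genes of all kinds. DESeq2 without age called 4499 of 15108 genes, and edgeR called 2998 of 14290 without age and 2187 of 14416 without calf 3213. In the fits without calf 3209, 3217, 3218 or 5932, 1 gene was called and 0 of the 4 members. As the same libraries chose the genes, these counts describe the fits and are no test.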

How the data were processed

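SOAPnuke (filtering), STAR 2.7 (alignment to bosTau9), HTSeq (counting per Ensembl gene) and sva (removal of the age effect) were run by the authors on unstranded reads. The deposited values are whole numbers and were treated as estimated counts, since the model of that adjustment is not given in the sources used here. Plain counts had been assumed in the design, and its tests were kept. Rounding changed no value.

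The members and the gene lists were chosen with earlier results of these data known. Gene names came from the study's supplementary tables (4168 IDs with a symbol), and 4 of 4 members were found by their IDs. In each organ edgeR 4.0.16 (R 4.3.3) was run with filterByExpr (minimum count 10, minimum total 15), TMM, a quasi-likelihood test whose covariate was age in days, and Benjamini-Hochberg adjustment, and it was tested on simulated data. SE is the log2 fold change over the root of F. Log2 CPM used a prior count of 2. DESeq2 1.42.0 served as alternative, and figures were drawn with matplotlib 3.10.9 in Python 3.11.15.

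Named beside the members were PRSS2, the gene just outside the FDR limit, the 2 annotated genes on each side of a member, the 3 genes most like it by Pearson's r, and up to 3 genes per list with the smallest p. GSTO1 and MIF are given by calf, AIF1 is named among the calls of DESeq2, APOA1, TTR, ASGR1 and APOB as the named hepatocyte markers, S100A9 is named as the highest marker and GSTA2 as the remaining transferase, all chosen after their values were seen. The labels name no batch. Each calf gave a liver and a muscle library, which pairs them by design (correlation of deviations -0.0910 to 0.178, median 0.0969, above 0.1 in 4 of 8 calves). Methylation data were not used here.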

Additional observations from a re-analysis of the deposited data

How the results depend on the processing

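The number of genes called depended strongly on the age term and on calf 3213 together (calf 3213 was 144 days old and the others 98 to 104). In liver 5 genes were called with age by edgeR, 17 without a filter on low counts, 2998 without age and 5 without both age and calf 3213. DESeq2 called 1475 with and 4499 without age. With each calf left out in turn liver calls numbered 1 to 2187, with 2187 without calf 3213, 1219 without calf 5841, 101 without calf 3208, 3 without calf 5833 and 1 without each of calves 3209, 3217, 3218 and 5932. In muscle 60 genes were called, 186 without a filter, 1174 without age, 83 without both age and calf 3213, and 443 and 1613 by DESeq2 with and without age. With calves left out these were 6 to 350, with 350 without calf 3209, 6 without calf 3218, 10 without calf 3217 and 19 without calf 5932. They were 33 without calf 5841, 35 without calf 3208, 42 without calf 3213 and 44 without calf 5833. The cause of these shifts was not tested. RLE factors left 4 liver calls, without LOC509881 (edgeR FDR 0.0572). In muscle the members had an FDR in the unfiltered fit alone, which called 0 of 4, where LOC509881 with its 1 count could not have been called. The filter and DESeq2 gave them none, so those fits say nothing about them. With the calf as replicate block, 12448 genes differed between liver and muscle in MOET and 11746 in IVP calves, against 12435 and 11735 without it, and no call on a member in the report rests on it. Of the values followed for single genes, 73 moved by less than the spread or, in muscle, kept their sign, and 1 moved, the CCDC42 ratio of 3.04. Counts of 0 to 9 in muscle limit every statement there.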
